A study of Mus musculus with 2 samples.

Results

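Smooth muscle contracts when myosin pulls on actin filaments that are anchored at dense plaques and at the plasma membrane. The 32 genes described here encode that machinery: actins, myosin chains, tropomyosins and calponins, the kinase and phosphatase subunits that set myosin phosphorylation, the proteins that fix actin to membranes and to each other, and the transcription factors that switch the program on. They were chosen by name, from a list of contractile and actin-anchoring genes. That choice was made with earlier results of these data known, so counts set beside those of all genes are descriptions. All 32 were found among the 32285 genes in the tables, with at least 1 UMI (unique molecular identifier, 1 per captured transcript) in each library. In the gut wall the program is known from smooth muscle, and in part from the subepithelial cells that lie under the crypt epithelium, which are also called myofibroblasts or telocytes and carry the transcription factor Foxl1. The question here was how the genes are distributed over fibroblasts, Foxl1-high cells and smooth muscle.

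The cells came from mouse colon and were sorted as negative for CD45, EpCAM and CD31, the surface proteins of leukocytes, epithelium and endothelium, and positive for gp38 (podoplanin). There were 2 libraries. The GF library was made from Balb/c mice and the ff library from C57BL/6 mice. The design text speaks of adult mice over 8 weeks of age and of germ-free mice; germ-free status is given for a library only by the name GF, and no label explains the name ff. Strain, library and status therefore cannot be told apart. Each group is 1 library, so cells are not replicates, no test between groups was made, and every interval below covers counting error alone. The GF library held 16388 barcodes and 105331294 UMIs, of which 14286 cells were kept (median 6350 UMIs). The ff library held 13704 barcodes and 119866589 UMIs, of which 12152 cells were kept (median 8858 UMIs). Of all barcodes, 55 occur in both libraries. The sort on gp38 sets which muscle cells could be caught, so the shares of cells below describe the sorted fraction.

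Cells were divided by marker genes, none of which is among the 32. The smooth muscle markers still include muscle genes, among them Synm, Pgm5, Nexn and Ldb3, so that gate was not independent of the muscle program. A gate without those genes is among the alternatives of the closing section. Smooth muscle-gated cells numbered 280 in GF (1.96% of cells) and 163 in ff (1.34%). Foxl1-high-gated cells numbered 1133 in GF (7.93%) and 2167 in ff (17.8%). Fibroblast-gated cells numbered 9874 in GF (69.1%) and 8100 in ff (66.7%). The gates are ranges on a score, and 268 GF and 157 ff cells lay near the smooth muscle threshold (a score between 14 and 28 counts per 10000), as did 372 GF and 633 ff cells for Foxl1. Most of the smooth muscle score came from Hhip, an antagonist of hedgehog ligands, at 2747 CPM in GF and 3358 CPM in ff smooth muscle-gated cells (CPM, counts per 1000000 UMIs). Of the other smooth muscle markers, Casq2, the calcium store protein calsequestrin, was lower in GF smooth muscle-gated cells (13.6 CPM) than in GF Foxl1-high-gated cells (118 CPM), while in ff it stood at 215 CPM and 175 CPM in those gates; Npnt stood at 9.45 CPM in GF and 0 CPM in ff smooth muscle-gated cells, against 10.5 CPM in GF and 1.76 CPM in ff Foxl1-high-gated cells. Foxl1 itself was at similar levels in smooth muscle-gated cells (72.6 CPM in GF, 53.6 CPM in ff) and in Foxl1-high-gated cells (84.5 CPM in GF, 53.0 CPM in ff). The other markers of the list were lower in smooth muscle-gated cells. Wif1, a Wnt inhibitor, was at 1.77 CPM in GF and 0.734 CPM in ff smooth muscle-gated cells, against 123 CPM in GF and 143 CPM in ff Foxl1-high-gated cells. These markers define the Foxl1-high gate, and cells passing both gates were left out. Their separation was thus in part set by the gating. Mesothelial markers were at 0 in smooth muscle-gated cells of both libraries.

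The contractile genes as a whole formed a gradient over the gates. They made up 6.00% of UMIs in smooth muscle-gated cells, 1.13% in Foxl1-high-gated cells and 0.337% in fibroblast-gated cells of the GF library. In the ff library the shares were 5.55% in smooth muscle-gated cells, 1.09% in Foxl1-high-gated cells and 0.360% in fibroblast-gated cells. The fibroblast gate required low smooth muscle and Foxl1 scores, which left out cells nearer the other gates. The 1529 GF and 1362 ff cells between the gates had 0.563% in GF and 0.517% in ff. A cluster led by Cd36 and Prdm1 had 0.487% in GF and 0.510% in ff. Of its cells, 56.8% in GF and 44.2% in ff were fibroblast-gated. The part of this selection in the fibroblast share was not tested. Leukocytes that had passed the sort, in which the genes should be low, gave 0.170% in GF and 0.150% in ff. Cells that also passed the smooth muscle, Foxl1-high or pericyte gate were left out of these leukocytes. The rank order smooth muscle above Foxl1-high above fibroblast held in both libraries for 25 of 32 genes. Over fibroblast-gated cells, 31 of 32 genes were at least 1.5-fold higher in smooth muscle-gated cells in each library, where 21.7% of all measured genes were so in GF and 17.6% in ff; none was lower, where 21.3% of all measured genes were lower in GF and 24.1% in ff. Over fibroblast-gated cells, 24 genes were higher in Foxl1-high-gated cells of GF and 22 in those of ff, where 17.2% of all measured genes were higher in GF and 13.5% in ff; 3 genes were lower in GF and 2 in ff (13.8% and 13.5% of all genes). The median log2 ratio of smooth muscle-gated over fibroblast-gated cells was 3.50 in GF and 3.53 in ff (0.09 and -0.01 for all measured genes), and that of Foxl1-high-gated over fibroblast-gated cells was 1.04 in GF and 0.94 in ff (0.16 and 0.10 for all measured genes). In smooth muscle-gated over Foxl1-high-gated cells, 30 genes were higher and 1 lower in each library (13.2% higher and 21.3% lower of all measured genes in GF, 14.3% higher and 22.9% lower in ff), with medians of 2.23 in GF and 2.06 in ff (-0.07 and -0.09 for all measured genes). A pseudocount of 1 CPM went into every ratio, so rare transcripts have ratios that are too small.

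Markers of other cell types also differed between the gates. Pericyte markers summed to 194 CPM in GF and 175 CPM in ff Foxl1-high-gated cells, against 71.1 CPM in GF and 70.9 CPM in ff fibroblast-gated cells. The fibroblast gate required a score below 8 counts per 10000 for this same list. Foxl1-high-gated cells were left out only if they passed the pericyte gate. The lower fibroblast sum was thus in part set by the gating. Kcnj8, Abcc9, Cspg4, Cox4i2 and Rgs4 were higher in Foxl1-high-gated than in fibroblast-gated cells of each library. Rgs5, Steap4, Ndufa4l2 and Notch3 were lower in each, and Higd1b differed between libraries. Rgs5 was at 4.80 CPM in GF and 3.08 CPM in ff Foxl1-high-gated cells, against 10.5 CPM in GF and 9.28 CPM in ff fibroblast-gated cells. Steap4 was at 11.5 CPM in GF and 14.8 CPM in ff Foxl1-high-gated cells, against 31.8 CPM in GF and 28.1 CPM in ff fibroblast-gated cells. In Foxl1-high-gated cells 8 of 10 pericyte markers had a UMI in GF, with Notch3 and Higd1b at 0, and all 10 had one in ff. Single Foxl1-high-gated cells ranged up to 19.9 counts per 10000 in GF and 14.3 in ff for that list. Markers of interstitial cells of Cajal summed to 159 CPM in GF and 153 CPM in ff Foxl1-high-gated cells, compared with 30.3 CPM in GF and 31.8 CPM in ff fibroblast-gated cells. That list has 3 genes, and cells with all 3 had been left out. The median Foxl1-high-gated cell had 1.29 counts per 10000 of it in GF and 1.20 in ff. Cells of the pericyte gate (43 in GF, 56 in ff) had 1.12% of their UMIs from the 32 genes in GF and 0.745% in ff, with Acta2 at 1095 CPM in GF and 629 CPM in ff. In GF their summed share was near that of Foxl1-high-gated cells, but the typical cell was lower. Of 2000 UMIs drawn per cell, the median was 10.5 in GF and 11.5 in ff pericyte-gated cells. Foxl1-high-gated cells had a median of 20 in each library. The 95th percentile of GF pericyte-gated cells was 79.5 UMIs, against 47 in GF Foxl1-high-gated cells. The part of these cell types in the values of the gates was not tested.

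**Figure D1:**
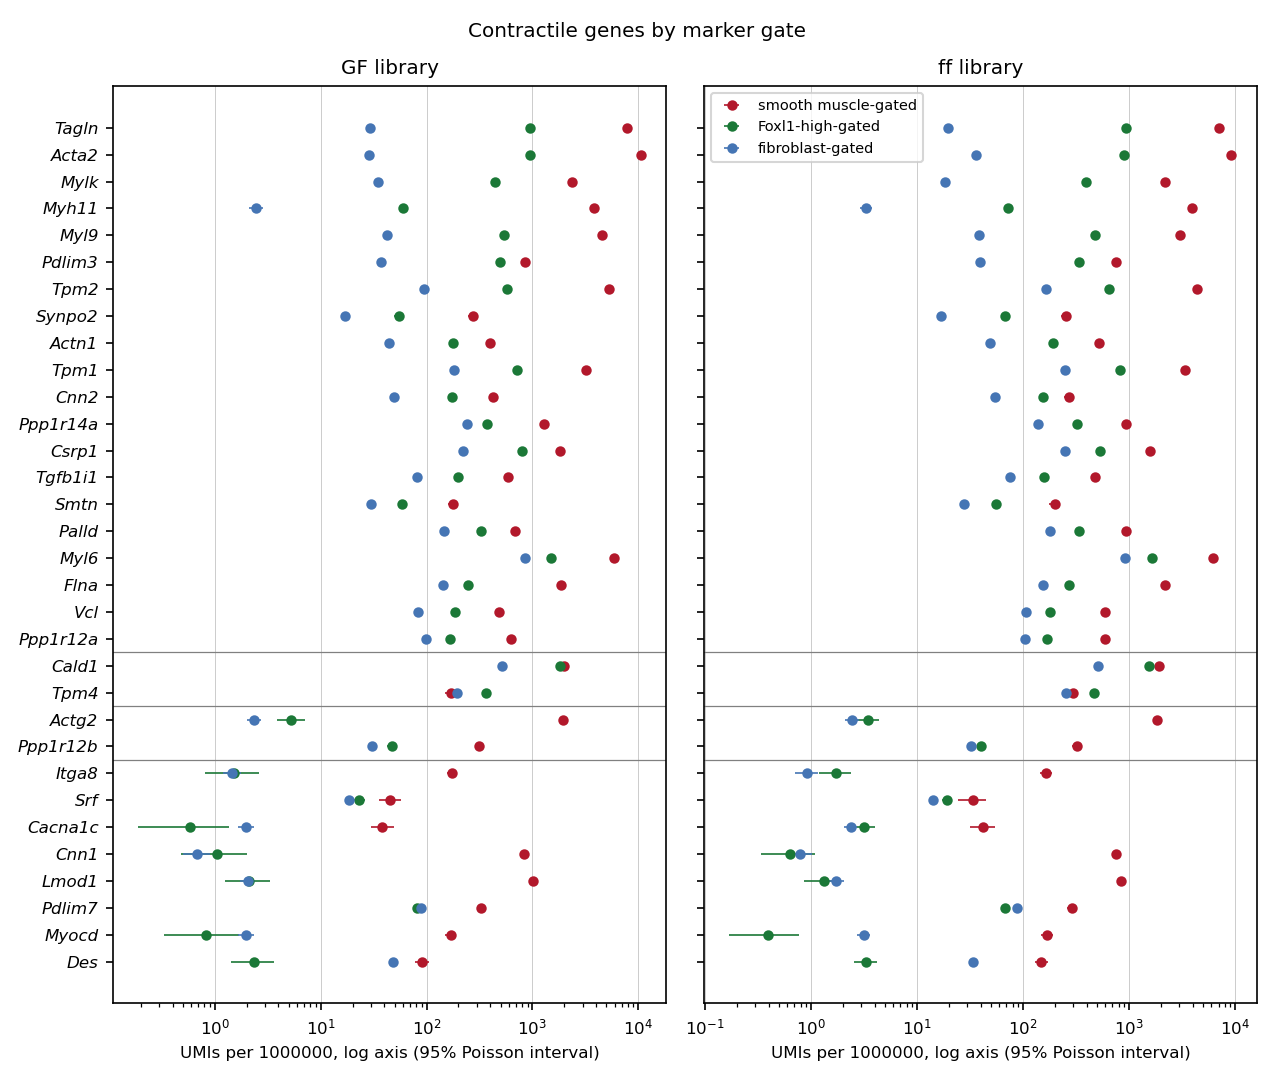
Level of each contractile gene (UMIs per 1000000, log axis, with exact 95% Poisson intervals) in smooth muscle-gated, Foxl1-high-gated and fibroblast-gated cells, with the GF library on the left and the ff library on the right. Lines divide the genes by how Foxl1-high-gated cells compared with the others; in the upper block the 3 gates stand in the same order, and in the lowest block Foxl1-high-gated cells lie at or below the fibroblast level or within 1.5-fold above it.

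The genes fell into 4 patterns. For 20 genes, Foxl1-high-gated cells were at least 1.5-fold above fibroblast-gated cells and smooth muscle-gated cells at least 1.5-fold above Foxl1-high-gated cells, in both libraries. For 8 genes, smooth muscle-gated cells were at least 1.5-fold above fibroblasts in both libraries and Foxl1-high-gated cells in neither. For 2 genes (Tpm4 and Cald1), Foxl1-high-gated cells were above fibroblasts and smooth muscle-gated cells did not exceed them by 1.5-fold. The other 2 genes (Actg2 and Ppp1r12b) differed between libraries at the threshold.

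The filaments themselves came first among the graded genes. Acta2, smooth muscle alpha-actin (chromosome 19, 34241090 to 34255590, minus strand, GRCm38), stood at 10500.5 CPM in GF and 9192 CPM in ff smooth muscle-gated cells. In Foxl1-high-gated cells it stood at 945 CPM (925 to 966) in GF and 892 CPM (879 to 905) in ff. In fibroblast-gated cells it stood at 28.5 CPM (27.2 to 29.8) in GF and 35.8 CPM (34.5 to 37.2) in ff. Foxl1-high-gated cells thus carried 9.0% of the smooth muscle level in GF and 9.70% in ff, and their log2 ratio over fibroblasts was 5.0 in GF and 4.60 in ff. Tagln, transgelin or SM22, an actin-binding protein (chromosome 9, 45929619 to 45936058, minus strand), stood at 7866 CPM in GF and 7059.8 CPM in ff smooth muscle-gated cells. In Foxl1-high-gated cells Tagln stood at 939.7 CPM in GF and 933 CPM in ff, and in fibroblast-gated cells at 29.2 CPM in GF and 19.5 CPM in ff. All 3 gates were separated for both genes in each library.

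Myosin and its light chains were graded as well, at different heights. Myh11, the smooth muscle myosin heavy chain (chromosome 16, 14194535 to 14291372, minus strand), stood at 3816 CPM in GF and 3915 CPM in ff smooth muscle-gated cells. In Foxl1-high-gated cells it stood at 60.6 CPM (55.5 to 66.1) in GF and 72.6 CPM (69.0 to 76.4) in ff, against 2.46 CPM in GF and 3.31 CPM in ff fibroblast-gated cells. Foxl1-high-gated cells held 1.59% of the smooth muscle level of Myh11 in GF and 1.85% in ff, a smaller share than for Acta2. Myl9, the regulatory light chain of smooth muscle myosin, was at 538 CPM in GF and 481 CPM in ff Foxl1-high-gated cells, 11.9% of the smooth muscle level in GF and 15.9% in ff. Mylk, the kinase that phosphorylates that light chain, was at 440.5 CPM in GF and 392 CPM in ff Foxl1-high-gated cells, against 34.8 CPM in GF and 18.5 CPM in ff fibroblast-gated cells. Myl6, an essential light chain also used by non-muscle myosin, was at 1508 CPM in GF and 1666 CPM in ff Foxl1-high-gated cells, against 858 CPM in GF and 922 CPM in ff fibroblast-gated cells.

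The promoters of some graded genes, and of Srf, carried a CArG box, the motif known to be bound by SRF, the transcription factor of the contractile program. The 300-base windows around gene starts (250 bases before and 50 after, RefSeq, GRCm38.p6) were available for 27 of the 32 genes, and 5 of them (18.5%) held a box on the strict pattern, which reads alike on both strands; 352 of 20036 genes with a window did (1.76%). The genes were Myl9, Cnn2, Vcl, Srf and Myl6. The sequences of 4 of them are shown because they place the box in a promoter; the stretch upstream of the transcripts is printed 5′ to 3′ along the gene, with the box in capitals. A match describes the letters in this window and shows no binding. Myl9 lies on the plus strand (chr2:156775214-156775419), with its box starting at -161 from the gene start. Cnn2, a calponin, lies on the plus strand (chr10:79988350-79988583), with its box at -56. Vcl, vinculin, which links actin to adhesion sites, lies on the plus strand (chr14:20929148-20929397), with its box at -227. Srf lies on the minus strand (chr17:46556176-46556412), with boxes at -82 and -62.
Myl9: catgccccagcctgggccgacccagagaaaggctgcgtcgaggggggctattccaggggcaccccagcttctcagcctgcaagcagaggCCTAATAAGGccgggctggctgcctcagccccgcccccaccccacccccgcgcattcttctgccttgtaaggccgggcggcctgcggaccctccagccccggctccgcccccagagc
Cnn2: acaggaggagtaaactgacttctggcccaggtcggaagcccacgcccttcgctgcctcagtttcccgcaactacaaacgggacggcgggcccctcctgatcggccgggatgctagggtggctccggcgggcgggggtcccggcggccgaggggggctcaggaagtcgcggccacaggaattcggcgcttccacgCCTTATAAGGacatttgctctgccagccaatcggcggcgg
Vcl: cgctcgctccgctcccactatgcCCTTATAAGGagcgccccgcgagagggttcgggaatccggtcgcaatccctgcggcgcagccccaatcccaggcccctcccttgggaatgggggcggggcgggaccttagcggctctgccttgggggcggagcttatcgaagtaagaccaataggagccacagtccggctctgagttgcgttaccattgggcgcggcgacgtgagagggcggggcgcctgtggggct
Srf: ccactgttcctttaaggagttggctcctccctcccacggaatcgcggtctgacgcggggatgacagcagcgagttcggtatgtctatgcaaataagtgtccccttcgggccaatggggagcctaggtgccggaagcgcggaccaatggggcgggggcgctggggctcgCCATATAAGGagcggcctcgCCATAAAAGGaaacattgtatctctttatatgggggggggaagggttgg

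Tropomyosins lie along actin filaments and differed among themselves. Tpm2 stood at 5251 CPM in GF and 4362 CPM in ff smooth muscle-gated cells, at 569.5 CPM in GF and 656 CPM in ff Foxl1-high-gated cells, and at 95 CPM in GF and 165 CPM in ff fibroblast-gated cells. Tpm1 followed the same order, at 718 CPM in GF and 816 CPM in ff Foxl1-high-gated cells. Tpm4, a tropomyosin of non-muscle cells, went the other way: it was highest in Foxl1-high-gated cells at 363 CPM (350 to 376) in GF and 471 CPM (462 to 480) in ff, against 169 CPM (150 to 190) in GF and 300.03 CPM (272 to 331) in ff smooth muscle-gated cells. Leukocytes had 365 CPM of Tpm4 in GF and 238 CPM in ff. Tpm4 thus did not follow the gradient, and its level is also high outside the mesenchyme. Cald1, caldesmon, an actin-binding inhibitor of myosin, was at 1822 CPM in GF and 1554 CPM in ff Foxl1-high-gated cells, which is 91.1% of the smooth muscle level in GF and 80.4% in ff. Cald1 was the most abundant contractile transcript of GF Foxl1-high-gated cells (16.1% of the UMIs of the 32 genes), whereas Myl6 was the most abundant in ff (15.3%).

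The genes that link actin filaments to each other and to the membrane were graded to different degrees. Pdlim3, a PDZ and LIM protein that binds alpha-actinin, was at 498 CPM in GF and 340.3 CPM in ff Foxl1-high-gated cells, against 37.2 CPM in GF and 39.4 CPM in ff fibroblast-gated cells. It lay nearer to smooth muscle than most of the list, at 58.7% of the smooth muscle level in GF and 45.2% in ff. Flna, filamin A, a cross-linker of actin, stood at 1859.6 CPM in GF and 2174 CPM in ff smooth muscle-gated cells but at 249 CPM in GF and 273 CPM in ff Foxl1-high-gated cells, compared with 142 CPM in GF and 155 CPM in ff fibroblast-gated cells. Actn1, alpha-actinin, was at 177 CPM in GF and 192 CPM in ff Foxl1-high-gated cells, against 44.4 CPM in GF and 49.2 CPM in ff fibroblast-gated cells. Vcl was at 184 CPM in GF and 179 CPM in ff Foxl1-high-gated cells, against 83.4 CPM in GF and 106 CPM in ff fibroblast-gated cells. Csrp1, Synpo2, Smtn, Palld, Tgfb1i1 and Cnn2, all actin- or adhesion-associated proteins, were graded with log2 ratios of Foxl1-high-gated over fibroblast-gated cells between 0.94 and 1.85 in GF and between 0.90 and 1.95 in ff.

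The control of myosin phosphorylation was split. Ppp1r12a, the targeting subunit of myosin phosphatase, and Ppp1r14a, an inhibitor of that phosphatase, were graded. Ppp1r12a was at 165 CPM in GF and 170.5 CPM in ff Foxl1-high-gated cells, against 98.8 CPM in GF and 105 CPM in ff fibroblast-gated cells. Ppp1r14a was at 374 CPM in GF and 324 CPM in ff Foxl1-high-gated cells, and was also abundant in fibroblast-gated cells, at 241 CPM in GF and 139 CPM in ff. Its direction in GF turned against fibroblasts of the lamina propria side, which had 486 CPM (log2 ratio -0.38), and the fibroblast clusters led by Col6a5 and by Hbb-bs had 504 CPM and 523 CPM in GF; in ff the log2 ratio over the lamina propria side was 0.40. Ppp1r12b, a second targeting subunit found mainly in muscle, had a log2 ratio of Foxl1-high-gated over fibroblast-gated cells of 0.62 in GF and 0.29 in ff, and passed 1.5-fold in GF alone. Along the log2 distance from the fibroblast to the smooth muscle level, Foxl1-high-gated cells lay at a median of 41.1% in GF (30 genes at least 2-fold higher in smooth muscle) and 37.9% in ff (31 genes).

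A second set was at smooth muscle levels in smooth muscle-gated cells and near or below the fibroblast level in Foxl1-high-gated cells. Cnn1, calponin-1, a late marker of smooth muscle (chromosome 9, 22099216 to 22109630, plus strand), stood at 837 CPM in GF and 764 CPM in ff smooth muscle-gated cells, and at 1.05 CPM (9 UMIs) in GF and 0.636 CPM (13 UMIs) in ff Foxl1-high-gated cells. Fibroblast-gated cells had 0.680 CPM in GF and 0.796 CPM in ff. Lmod1, leiomodin, which nucleates actin filaments, was at 2.11 CPM in GF and 1.32 CPM in ff Foxl1-high-gated cells, against 1012 CPM in GF and 850.2 CPM in ff smooth muscle-gated cells. Foxl1-high-gated cells thus held 0.126% of the smooth muscle level of Cnn1 in GF and 0.083% in ff, and 0.208% of Lmod1 in GF and 0.155% in ff, where Acta2 stood at 9.0% in GF and 9.70% in ff.

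Actg2, the gamma-actin of enteric smooth muscle, was at 1933 CPM in GF and 1827 CPM in ff smooth muscle-gated cells and at 5.26 CPM in GF and 3.48 CPM in ff Foxl1-high-gated cells, against 2.34 CPM in GF and 2.46 CPM in ff fibroblast-gated cells. Of the UMIs of the smooth muscle actins, Acta2 supplied 99.4% in GF and 99.6% in ff Foxl1-high-gated cells, against 84.5% in GF and 83.4% in ff smooth muscle-gated cells. Actg2 passed 1.5-fold in Foxl1-high-gated over fibroblast-gated cells in GF alone. The integrin Itga8 was within 1.5-fold in both libraries, at 1.52 CPM in GF and 1.71 CPM in ff Foxl1-high-gated cells, against 1.46 CPM in GF and 0.919 CPM in ff fibroblast-gated cells. The L-type calcium channel Cacna1c was lower in GF Foxl1-high-gated cells, at 0.585 CPM (5 UMIs) against 1.98 CPM in GF fibroblast-gated cells (log2 ratio -0.91), but was at 3.18 CPM in ff Foxl1-high-gated cells against 2.37 CPM in ff fibroblast-gated cells (0.31). Pdlim7 did not exceed fibroblasts in Foxl1-high-gated cells, at 81.1 CPM in GF and 68.2 CPM in ff, compared with 88.8 CPM in GF and 88.9 CPM in ff.

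Des, desmin, the intermediate filament protein of muscle, ran against the gradient in Foxl1-high-gated cells. It was at 90.9 CPM in GF and 149 CPM in ff smooth muscle-gated cells, at 2.34 CPM (1.43 to 3.61) in GF and 3.28 CPM (2.54 to 4.17) in ff Foxl1-high-gated cells, and at 48.5 CPM (46.9 to 50.2) in GF and 33.9 CPM (32.5 to 35.2) in ff fibroblast-gated cells. Its log2 ratio of Foxl1-high-gated over fibroblast-gated cells was -3.89 in GF and -3.03 in ff. Myocd, the coactivator of SRF in muscle, was also lower in Foxl1-high-gated cells: at 0.819 CPM in GF and 0.392 CPM in ff, compared with 1.97 CPM in GF and 3.14 CPM in ff fibroblast-gated cells, with 169 CPM in each library's smooth muscle-gated cells. Srf was within 1.5-fold in Foxl1-high-gated over fibroblast-gated cells, with log2 ratios of 0.29 in GF and 0.41 in ff.

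**Figure D2:**
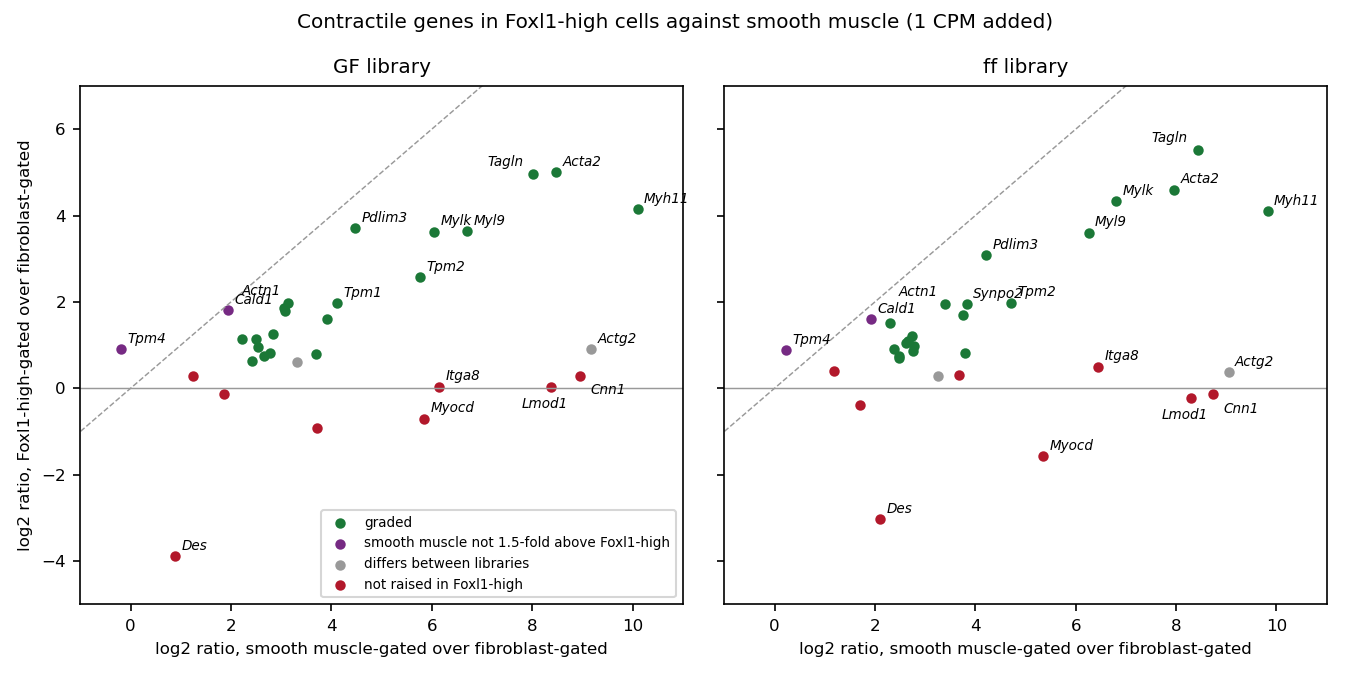
Log2 ratio of each contractile gene in Foxl1-high-gated over fibroblast-gated cells (vertical) against smooth muscle-gated over fibroblast-gated cells (horizontal), 1 CPM added, GF on the left and ff on the right, with points coloured by pattern. The dashed diagonal marks equal levels in Foxl1-high and smooth muscle; Tagln and Acta2 lie high on both axes, while Cnn1, Lmod1 and Actg2 lie between -0.23 and 0.91 on the vertical axis and at 8.29 or more on the horizontal one.

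Isoform use shifted along the same line for actins, myosin heavy chains, regulatory light chains and, by the share of Tpm2, tropomyosins. It did not for calponins or the targeting subunits of myosin phosphatase. Acta2 made up 44.6% of the UMIs of the 4 actins counted (Acta2, Actg2, Actb and Actg1) in GF and 43.2% in ff smooth muscle-gated cells, 12.8% in GF and 14.9% in ff Foxl1-high-gated cells, and 0.490% in GF and 0.778% in ff fibroblast-gated cells. Myh11 made up 95.2% of myosin II heavy chain UMIs in GF and 95.3% in ff smooth muscle-gated cells, and 8.99% in GF and 11.1% in ff Foxl1-high-gated cells, where the non-muscle heavy chain Myh9 held 70.2% in GF and 66.8% in ff. In fibroblast-gated cells Myh11 held 1.06% in GF and 1.40% in ff. Of the UMIs of Tpm1, Tpm2, Tpm3 and Tpm4, Tpm2 held 60.5% in GF and 53.3% in ff smooth muscle-gated cells. It held 31.1% in GF and 29.0% in ff Foxl1-high-gated cells, and 15.1% in GF and 16.6% in ff fibroblast-gated cells. The share of Tpm1 had that order in ff alone. Calponin was mainly Cnn1 in smooth muscle-gated cells (55.8% in GF, 62.9% in ff) and Cnn2 and Cnn3 in Foxl1-high-gated cells, with Cnn1 at 0.311% in GF and 0.199% in ff. Fibroblast-gated cells had Cnn1 at 0.408% in GF and 0.430% in ff. Ppp1r12b made up 27.3% of targeting subunit UMIs in GF and 29.2% in ff smooth muscle-gated cells. In Foxl1-high-gated cells it held 15.6% in GF and 13.4% in ff, against 15.9% in GF and 16.2% in ff fibroblast-gated cells. Myl9 made up 89.3% of regulatory light chain UMIs in GF and 85.5% in ff smooth muscle-gated cells, against 37.3% in GF and 33.6% in ff Foxl1-high-gated cells. In fibroblast-gated cells Myl9 held 6.45% in GF and 6.51% in ff. The split between Myl12a and Myl12b, near-identical copies, depends on how shared reads were counted.

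Cell by cell, the Foxl1-high level was a shift of the bulk of cells. After each cell was thinned to 2000 UMIs, the 32 genes gave a median of 122 UMIs in GF and 112 in ff smooth muscle-gated cells, 20 in each library's Foxl1-high-gated cells, and 6 in GF and 7 in ff fibroblast-gated cells. Of Foxl1-high-gated cells, 77.4% in GF and 78.8% in ff lay above the 95th percentile of fibroblast-gated cells, which was 13 UMIs in each library. At 2000 UMIs, 0.531% of GF and 0.324% of ff Foxl1-high-gated cells reached the 5th percentile of smooth muscle-gated cells (67.7 UMIs in GF, 63 in ff). Acta2 was found in 56.3% of GF and 58.6% of ff Foxl1-high-gated cells, against 3.1% of GF and 4.6% of ff fibroblast-gated cells and 0.5% of GF and 0.8% of ff leukocytes; the thinned depth was the same in all. At least 2 of Acta2, Tagln, Mylk and Myl9 were found in 65.0% of GF and 67.3% of ff Foxl1-high-gated cells, against 2.13% of GF and 1.60% of ff fibroblast-gated cells. The 8 genes that were not raised in Foxl1-high-gated cells gave at least 1 UMI in 19.6% of GF and 16.4% of ff of those cells, against 26.1% of GF and 25% of ff fibroblast-gated cells, a description, since these genes were sorted by the same contrast. In ff, 3.73% of smooth muscle-gated cells had none of the 4 genes.

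**Figure D3:**
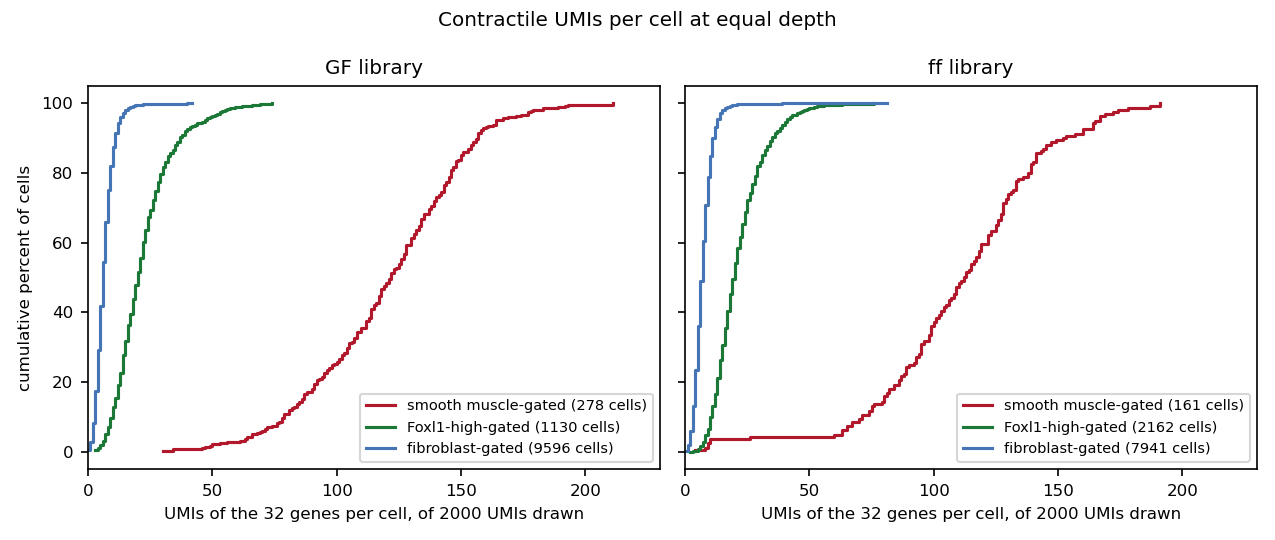
Cumulative percent of cells against UMIs of the 32 genes per cell after thinning each cell to 2000 UMIs, GF on the left and ff on the right. Medians were 122 and 112 in smooth muscle-gated cells, 20 and 20 in Foxl1-high-gated cells, and 6 and 7 in fibroblast-gated cells of GF and ff.

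Foxl1-high cells are known to come in more than one state. Cells were put on a Nrg1 side (Nrg1 and Fgf9, growth factors) or a Wif1 side (Wif1 and the bone morphogenetic protein Bmp3) by the larger UMI sum of those pairs, at least 2. On the Nrg1 side (443 GF and 837 ff cells) Acta2 was lower than on the Wif1 side (466 GF and 946 ff cells): 747 CPM in GF and 462 CPM in ff on the Nrg1 side, against 1149 CPM in GF and 1386 CPM in ff on the Wif1 side (log2 ratios -0.62 and -1.58). Tagln was lower by the same comparison, at 618 CPM in GF and 426 CPM in ff on the Nrg1 side, against 1213 CPM in GF and 1499.6 CPM in ff on the Wif1 side (-0.97 and -1.81). Pdlim3 and Myl9 followed (-0.87 and -1.21 for Pdlim3, -0.60 and -1.20 for Myl9). Ppp1r14a ran the other way, with a log2 ratio of 0.39 in GF and 0.87 in ff. Of the measured contractile genes, 4 of 25 were lower on the Nrg1 side in GF and 7 of 28 in ff, where 4.86% and 6.64% of all measured genes were lower; 2 were higher in GF and 3 in ff (5.62% and 6.97%). The median log2 ratio was -0.06 in GF and -0.17 in ff (-0.05 for all measured genes in each).

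Clusters found without the 32 genes among their variable genes included 2 made up mainly of Foxl1-high-gated cells. The Foxl1-high cluster led by Nrg1, Ptprr and Plau held 140 GF and 382 ff cells and had Acta2 at 518 CPM in GF and 263 CPM in ff, Tagln at 183 CPM in GF and 130.2 CPM in ff, and Ppp1r14a at 507 CPM in GF and 517 CPM in ff. The one led by Sox6, Fgfbp1 and Wif1 held 867 GF and 1731 ff cells and had Acta2 at 1169 CPM in GF and 1129.9 CPM in ff, Tagln at 1222 CPM in GF and 1222 CPM in ff, and Ppp1r14a at 337 CPM in GF and 268 CPM in ff. Both lay above every fibroblast cluster in Acta2 and Tagln.

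Within fibroblasts the contractile genes were low and uneven. Fibroblast-gated cells were split by lamina propria markers (2411 GF and 2167 ff cells) and adventitial or submucosal markers (4283 GF and 2727 ff cells). On the lamina propria side, Mylk was at 89.7 CPM in GF and 39.4 CPM in ff, compared with 10.8 CPM in GF and 7.84 CPM in ff on the adventitial side (log2 ratios 2.94 and 2.19). Pdlim3 was at 70.0 CPM in GF and 62.3 CPM in ff on the lamina propria side, against 10.9 CPM in GF and 8.14 CPM in ff on the adventitial side (2.58 and 2.79). Ppp1r14a was at 486 CPM in GF and 245 CPM in ff on the lamina propria side, against 94.4 CPM in GF and 50.3 CPM in ff on the adventitial side (2.35 and 2.27). Myl9 ran the other way, at 30.05 CPM in GF and 25.4 CPM in ff on the lamina propria side, against 54.0 CPM in GF and 72.2 CPM in ff on the adventitial side. In all, 16 of 30 measured genes in GF and 19 of 31 in ff were higher on the lamina propria side (23.5% and 15.3% of all measured genes), and 1 in GF and 2 in ff were lower (8.38% and 7.96%).

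Levels also varied among the fibroblast clusters. Des was at 129 CPM in GF, above GF smooth muscle-gated cells, but at 33.6 CPM in ff in the cluster led by Efhd1, Sfrp4 and Cmah. Mylk was highest, among these clusters, at 146 CPM in GF and 93.8 CPM in ff in the cluster led by Col6a5 and Adamdec1. Myl9 was at 105 CPM in GF and 115 CPM in ff in the cluster led by Chrdl1 and Ntrk3. Myocd was at 9.5 CPM in GF and 6.7 CPM in ff in the cluster led by Stmn2 and Hapln1.

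**Figure D4:**
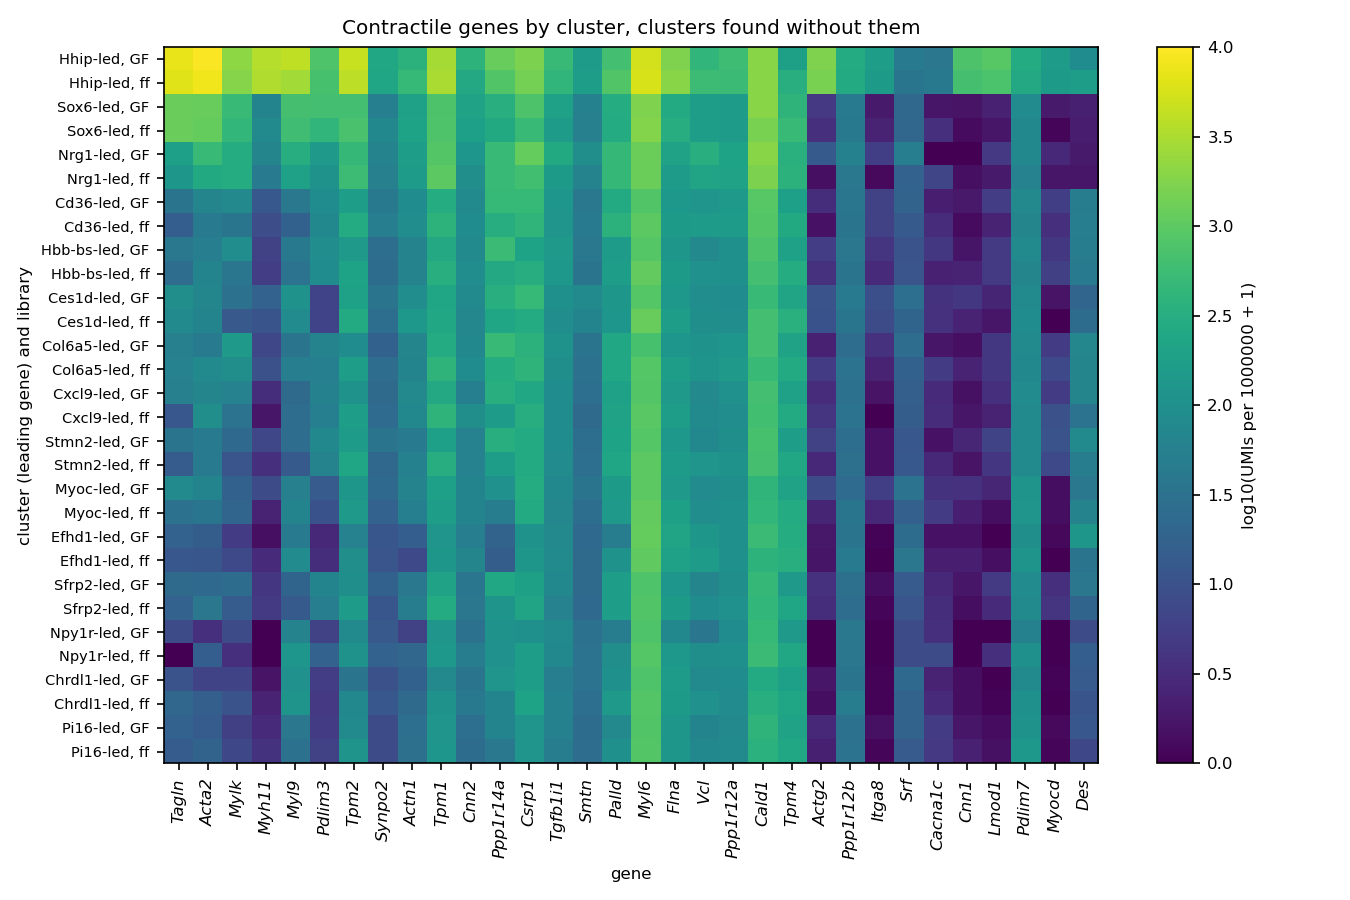
Level of each contractile gene (log10 of UMIs per 1000000 plus 1) in clusters present in both libraries and made up mainly of smooth muscle-gated, Foxl1-high-gated or fibroblast-gated cells; each row is a cluster in GF, with ff below it, named by its leading gene and ordered by the share of UMIs from the 32 genes. The Hhip-led cluster is highest, the Sox6-led and Nrg1-led clusters follow, and the fibroblast clusters are low.

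Between libraries, few contractile genes differed by 1.5-fold within a gate. In smooth muscle-gated cells, 1 of 32 genes was at least 1.5-fold higher in GF (Cnn2, log2 ratio 0.63) and 2 were lower (Tpm4 -0.83, Des -0.71), where 10.6% of all measured genes were higher and 7.08% lower. In Foxl1-high-gated cells none of 28 measured genes was higher in GF and 1 was lower (Cacna1c, 5 UMIs in GF and 65 in ff), where 8.31% of genes were higher and 6.53% lower. In fibroblast-gated cells 2 of 32 were higher in GF (Mylk 0.88, Ppp1r14a 0.79) and 1 lower (Tpm2 -0.79), where 4.91% of genes were higher and 5.43% lower. These fibroblast counts are small and lie near those shares. The median log2 ratios of the measured genes were 0.09, 0.05 and -0.09 in smooth muscle-gated, Foxl1-high-gated and fibroblast-gated cells (0.07, 0.10 and 0.02 for all measured genes). On the Nrg1 side of the Foxl1-high-gated cells, 4 of 27 measured genes were higher in GF and 1 was lower. Over all measured genes, 10% were higher there and 6.77% lower, so both counts are small and lie near those shares. The 4 genes were Acta2 (747 CPM in GF, 462 CPM in ff, log2 ratio 0.69), Pdlim3 (0.74), Csrp1 (0.61) and Srf (0.70). The lower gene was Des (-0.95), a rare transcript in Foxl1-high-gated cells. On the Wif1 side, Acta2 stood at 1149 CPM in GF and 1386 CPM in ff (-0.27); none of 25 measured genes was higher in GF there and 1 was lower (Synpo2, -0.70), where 9.23% of all genes were higher and 6.36% lower. The median log2 ratio was 0.21 on the Nrg1 side and -0.12 on the Wif1 side (0.10 for all measured genes on each), and the difference between the sides was not tested. Pericyte markers moved with the library in smooth muscle-gated cells: they summed to 1275 CPM in GF and 260 CPM in ff, of which Rgs5 made up 1164 CPM in GF and 175 CPM in ff. Cspg4 and Steap4 ran the other way, at 21.9 CPM in GF and 27.1 CPM in ff for Cspg4 and at 1.77 CPM in GF and 2.93 CPM in ff for Steap4. Of the 10 pericyte markers, 7 had a UMI in GF and 6 in ff, Notch3, Higd1b and Ndufa4l2 were at 0 in each, and single cells ranged up to 105.1 counts per 10000 in GF and 52.1 in ff. Hhip was at 138 CPM in GF and 17.1 CPM in ff Foxl1-high-gated cells. Their part in the differences between libraries was not tested.

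**Figure D5:**
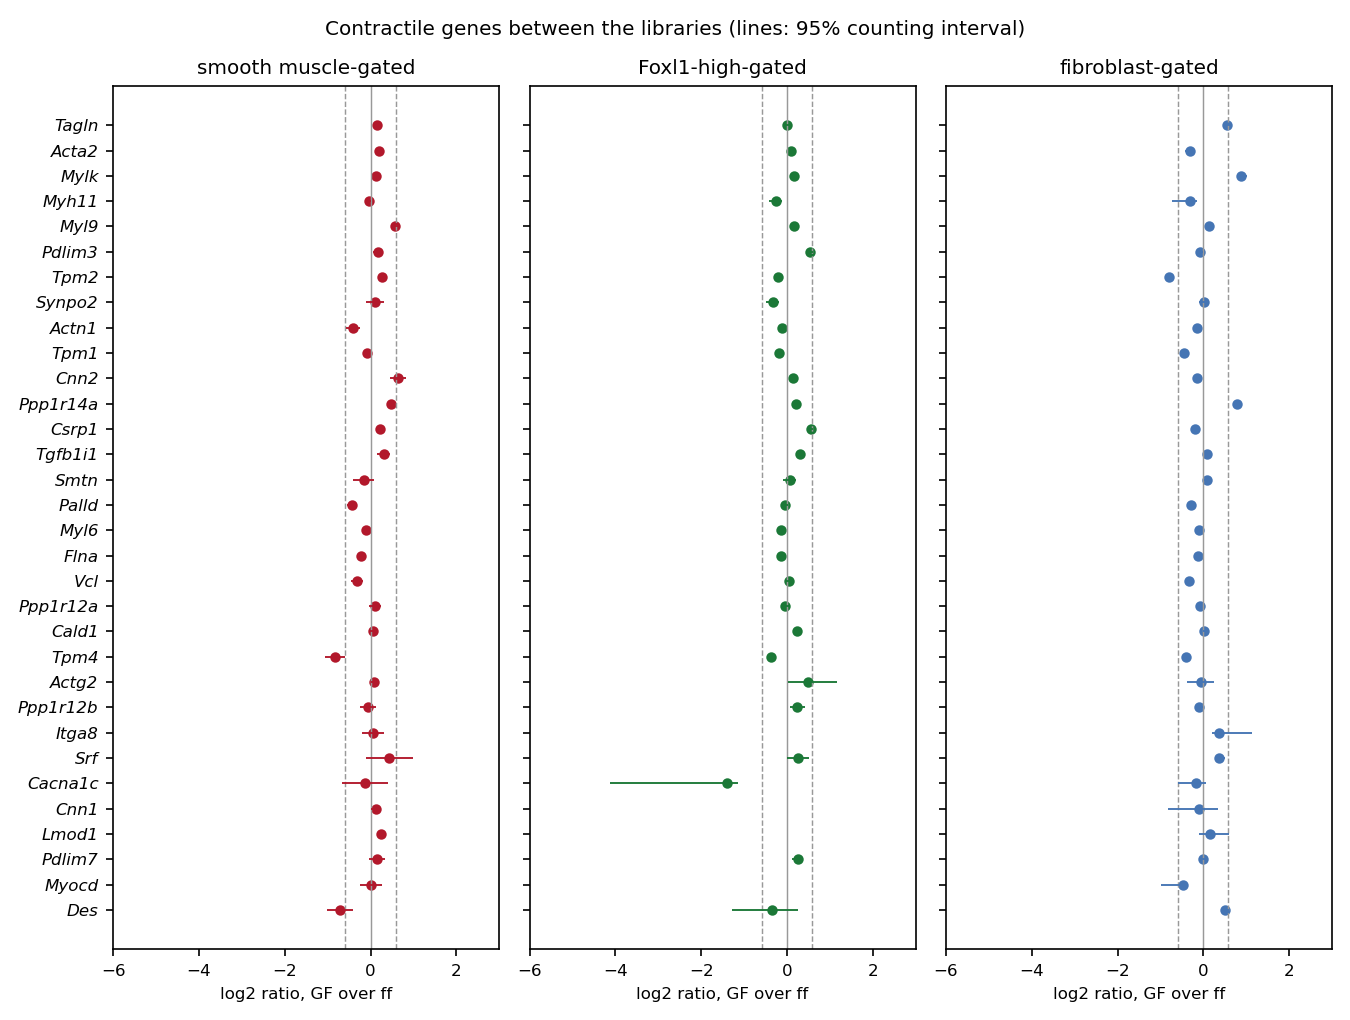
Log2 ratio of GF over ff for the measured contractile genes in smooth muscle-gated, Foxl1-high-gated and fibroblast-gated cells, 1 CPM added, with the exact counting interval (no CPM added) as a line. Dashed lines mark 1.5-fold; most points lie between them in all 3 gates.

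Of 66 related genes (among them genes of non-muscle actomyosin and of calcium and SRF control), 24 of 64 measured in GF and 24 of 65 in ff were at least 1.5-fold higher in Foxl1-high-gated than in fibroblast-gated cells, where 17.2% of all measured genes were so in GF and 13.5% in ff. Of the related genes 12 in GF and 9 in ff were lower, where 13.8% and 13.5% of all measured genes were. By the rule for naming, the largest were Ednrb, an endothelin receptor (659 CPM in GF and 354 CPM in ff Foxl1-high-gated cells, against 1.58 CPM in GF and 2.72 CPM in ff fibroblast-gated cells, log2 ratios 8.00 and 6.58), Limch1, which activates non-muscle myosin (-3.65 and -4.08), Agtr1a, the angiotensin receptor (-3.54 and -3.67), Ednra, the other endothelin receptor (2.96 and 2.57), Fhl2, a LIM-domain cofactor (2.48 and 2.73), and Itga1, a collagen-binding integrin (2.71 and 2.46). Ednrb was above its smooth muscle level (79.7 CPM in GF, 80.7 CPM in ff), and so was Fhl2 (147 CPM in GF and 102 CPM in ff, compared with 540.1 CPM in GF and 430.5 CPM in ff Foxl1-high-gated cells). Ednra was above its smooth muscle level by less, and past 1.5-fold in ff alone. It was at 157 CPM in GF and 150 CPM in ff smooth muscle-gated cells, against 212 CPM in GF and 228 CPM in ff Foxl1-high-gated cells. In smooth muscle-gated over fibroblast-gated cells, 37 of 65 related genes in GF and 35 of 65 in ff were higher, where 21.7% of all measured genes were so in GF and 17.6% in ff, and 10 in each were lower, where 21.3% and 24.1% were.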

How the data were processed

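Single cells from mouse large intestine were measured with 10x Genomics 3' v3.1 kits, 1 library per group. Per the submitters' processing notes, the authors used Cell Ranger 6.0.0 and mm10; the deposited tables hold raw UMI counts per gene and barcode, with no normalization. The annotation release, and how reads shared by near-identical genes were counted, are not stated in those sources. Barcodes had at least 500 UMIs. Cells with at least 500 genes, 1000 UMIs and at most 10% mitochondrial UMIs were kept, and doublets were removed with Scrublet in scanpy 1.11.5 (780 in GF, 5.18%, and 550 in ff, 4.33%).

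Scores were counts per 10000 summed over marker lists. Foxl1-high cells needed 20 or more over at least 4 of 11 markers, smooth muscle 20 or more over at least 4 of 13 markers, and fibroblasts 100 or more over at least 5 of 9 markers with low scores of the others; pericytes needed 16 or more over at least 3 of 10 markers. Cells passing 2 gates were left out, as were cells with at least 3 leukocyte markers, 3 Cajal cell markers, or 2 endothelial, epithelial, glial or mesothelial markers; cells with fewer such markers remained in the gates. Thresholds were set after the score distributions were seen. UMIs were summed per gate and given as counts per 1000000 UMIs, with exact 95% Poisson intervals; a share has an exact (Clopper-Pearson) interval. A gene was measured with at least 50 UMIs over both sums compared. Clusters (leidenalg 0.10.2, resolution 1) were found without the 32 genes. The members and lists were chosen with earlier results of these data known. The rule named up to 6 related genes with the largest absolute mean log2 ratio of Foxl1-high over fibroblast cells, the same sign in both libraries and at least 200 UMIs in each. Symbols matched 32158 of 32285 gene identifiers; positions are GENCODE vM21. The procedure was tested on simulated data. Alternatives are given in the closing section.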

Additional observations from a re-analysis of the deposited data

How the results depend on the processing

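Over all alternatives run, the median log2 ratio of the contractile genes stayed positive for smooth muscle-gated over fibroblast-gated cells (3.25 to 3.73 in GF, 3.26 to 3.97 in ff), for Foxl1-high-gated over fibroblast-gated cells (0.82 to 1.85 in GF, 0.70 to 1.51 in ff) and for smooth muscle-gated over Foxl1-high-gated cells (2.0 to 2.34 in GF, 1.88 to 2.23 in ff), and 23 to 26 genes had the full order. No paired analysis was possible because each group is 1 library, and no library could be left out. The few smooth muscle-gated cells (280 in GF, 163 in ff) and the rare transcripts limit precision. The gates without Hhip and with smooth muscle and pericyte double cells kept were chosen after seeing the data.

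Medians that moved beyond their counting interval were these. For smooth muscle-gated over fibroblast-gated cells in GF, the median was 3.25 with median-of-ratios scaling, 3.41 with the stricter cell filter, 3.35 with doublets kept, 3.35 with clusters in place of gates, and 3.73 against adventitial-side fibroblasts. In ff it was 3.33 with median-of-ratios scaling, 3.45 with the stricter cell filter, 3.48 with doublets kept, 3.68 with stricter gates, 3.30 with clusters, 3.31 with cells thinned to 2000 UMIs, 3.26 against lamina propria-side and 3.97 against adventitial-side fibroblasts. For Foxl1-high-gated over fibroblast-gated cells in GF it was 0.82 with median-of-ratios scaling, 1.30 after thinning and 1.85 against adventitial-side fibroblasts, and in ff 0.79 with that scaling, 0.70 against lamina propria-side and 1.51 against adventitial-side fibroblasts. For smooth muscle-gated over Foxl1-high-gated cells in GF it was 2.11 with the stricter cell filter and 2.0 with clusters, and in ff 1.9 with clusters, 1.88 after thinning and 2.23 with the gate without Hhip. For GF over ff in Foxl1-high-gated cells it was -0.067 with median-of-ratios scaling, against 0.05, so its sign depends on the scaling.

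The count of genes higher in Foxl1-high-gated over fibroblast-gated cells (24 in GF, 22 in ff) ran from 16 to 24 in GF and from 15 to 23 in ff, lowest at a threshold of 2-fold; median-of-ratios scaling gave 20 in GF and 21 in ff. Among the other counts of genes past 1.5-fold, GF over ff in Foxl1-high-gated cells gave 4 with clusters, 2 with a pseudocount of 0.1 CPM and 0 with at least 200 UMIs. GF over ff gave 6 in smooth muscle-gated cells without Synm, Pgm5, Nexn and Ldb3 in the gate, and 5 in fibroblast-gated cells with the smaller pseudocount. At a threshold of 2-fold it gave 0 in smooth muscle-gated and in fibroblast-gated cells. Nrg1 side over Wif1 side in GF gave 11 with no filter on low counts and 0 at 2-fold, and in ff 5 at 2-fold. The share of Foxl1-high-gated cells above the fibroblast 95th percentile in GF was 74.1% with doublets kept, 85.9% with stricter gates, 85.9% with clusters, 85.7% without thinning and 66.8% at 1000 UMIs, and in ff 82.7% with stricter gates, 90.8% without thinning and 60.6% at 1000 UMIs. Signs reversed for Itga8 on the Nrg1 over Wif1 side in GF with stricter gates (-0.18), for Actg2 on those sides in ff with clusters (-0.33) and after thinning (-0.23), for Ppp1r14a in Foxl1-high-gated cells over lamina propria-side fibroblasts in GF (-0.38), and for Myocd over adventitial-side fibroblasts in GF (0.21). The cause was not tested.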

Other observations

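Contractile transcripts also appeared in GF clusters led by T cell genes. In the cluster led by Ms4a4b and Trbc2 (478 GF cells) Acta2 stood at 112 CPM and Cnn1 at 11.2 CPM, and in the cluster led by Ccl5 and Rgs1 (106 GF cells) Acta2 stood at 182 CPM and Cnn1 at 20.2 CPM. The leukocyte gate leaves out cells with high fibroblast scores and cells that passed the smooth muscle, Foxl1-high or pericyte gate. In that gate Acta2 stood at 3.28 CPM in GF and 5.82 CPM in ff. The cluster led by Cd79a and Cd74 (635 GF cells) had Acta2 at 2.4 CPM. Their origin was not tested.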
